A study of Mus musculus with 6 samples.

Results

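Annexins and S100 proteins are the protein-coding genes of the mouse whose symbol starts with Anxa or S100, as GENCODE M21 or RefSeq names and classes them. There are 31 among the 48432 genes of the deposited table, 12 annexins and 19 S100 genes. One S100 symbol, S100pbp, names a binding protein of an S100 protein and not a member of the fold. Anxa13 is protein-coding in RefSeq and a processed transcript in GENCODE M21, and S100a7l2 carries the older name 9130204L05Rik in GENCODE M21. The antisense gene Anxa11os and the pseudogene S100a11-ps were left out, and the pseudogene was listed at 0 in all 6 samples.

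The samples were hepatocyte preparations of FVB mice, from which polyadenylated RNA was sequenced as stranded libraries. DDC fed samples came from adults given a diet with DDC, which disturbs heme synthesis and damages bile ducts and hepatocytes, for 4 weeks, E18 samples from livers of embryonic day 18 with about 8 embryos pooled in each, and normal fed samples from adults on chow. Each group has 2 samples, called 0 and 1 as the table's columns number them, and the labels give neither the age of the adults nor whether samples came from separate animals. P-values therefore measure only the spread between these samples, which may be technical. Levels are TPM, transcript abundance scaled by transcript length and by the total of a sample, so levels of different genes are on one scale per length, apart from the trend with gene length in normal fed samples described below. The table holds no read counts, so the depth is unknown.

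Annexins bind phospholipid membranes when calcium rises, and act in membrane repair, vesicle traffic and the organisation of the cell cortex. S100 proteins are small calcium sensors with a pair of EF-hand motifs, which mostly form dimers and change the activity of a partner when they bind calcium. Several S100 dimers bind the tail of an annexin: S100a10 with Anxa2, and S100a11 with Anxa1 or Anxa2, are the best studied. Other members act outside the cell, above all S100a8 and S100a9, whose dimer calprotectin is a major cytosolic protein of neutrophils. In the adult liver many of these genes are expressed more in bile ducts, blood cells and stroma than in hepatocytes.

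Promoters are shown for the members that gave the largest differences, from 250 bases before to 50 after the RefSeq start (GRCm38.p6), 5′ to 3′. S100a8, S100a9 and Anxa1 were at their highest level at E18, and Anxa5 in DDC fed samples. S100a11 and Anxa2 were high in both, with means of 385 and 289 TPM in DDC fed and 346 and 256 TPM in E18 samples. Capitals mark matches, on either strand, to 5 short motifs. TATAAA is the core of the TATA box, which places the start of transcription. The letters TGANTCA are bound by AP-1, a factor of stress and growth signals. A core bound by C/EBP factors of liver and myeloid cells is spelled TTGCNNAA. The TEAD partners of the Hippo pathway bind GGAATG. Factors of the ETS family bind AGGAAG. No match of 1 motif overlaps a match of another in these sequences.
S100a8, chr3:90668821-90669120, plus strand: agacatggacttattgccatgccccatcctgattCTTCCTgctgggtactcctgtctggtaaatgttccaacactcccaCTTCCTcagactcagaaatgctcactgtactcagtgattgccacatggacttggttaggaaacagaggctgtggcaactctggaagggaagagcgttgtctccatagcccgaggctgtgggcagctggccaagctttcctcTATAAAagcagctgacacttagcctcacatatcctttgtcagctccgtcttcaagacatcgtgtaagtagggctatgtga
S100a9, chr3:90695672-90695971, minus strand: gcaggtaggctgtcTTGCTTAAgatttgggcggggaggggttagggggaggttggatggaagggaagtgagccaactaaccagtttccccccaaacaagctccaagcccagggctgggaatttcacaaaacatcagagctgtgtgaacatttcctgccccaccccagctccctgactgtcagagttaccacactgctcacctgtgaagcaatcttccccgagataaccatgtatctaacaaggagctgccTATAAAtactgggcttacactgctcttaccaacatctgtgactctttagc
Anxa1, chr19:20390622-20390921, minus strand: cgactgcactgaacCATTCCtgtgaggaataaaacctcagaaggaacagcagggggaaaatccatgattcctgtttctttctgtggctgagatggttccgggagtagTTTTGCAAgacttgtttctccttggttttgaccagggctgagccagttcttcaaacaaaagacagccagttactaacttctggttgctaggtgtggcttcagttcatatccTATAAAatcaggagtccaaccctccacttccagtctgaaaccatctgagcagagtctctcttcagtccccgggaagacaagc
S100a11, chr3:93520246-93520545, plus strand: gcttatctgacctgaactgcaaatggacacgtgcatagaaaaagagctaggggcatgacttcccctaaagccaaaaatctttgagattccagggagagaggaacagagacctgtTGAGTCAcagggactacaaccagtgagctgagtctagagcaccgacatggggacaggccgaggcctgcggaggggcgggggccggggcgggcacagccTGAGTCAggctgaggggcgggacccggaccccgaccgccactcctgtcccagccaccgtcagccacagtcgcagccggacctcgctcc
Anxa2, chr9:69453433-69453732, plus strand: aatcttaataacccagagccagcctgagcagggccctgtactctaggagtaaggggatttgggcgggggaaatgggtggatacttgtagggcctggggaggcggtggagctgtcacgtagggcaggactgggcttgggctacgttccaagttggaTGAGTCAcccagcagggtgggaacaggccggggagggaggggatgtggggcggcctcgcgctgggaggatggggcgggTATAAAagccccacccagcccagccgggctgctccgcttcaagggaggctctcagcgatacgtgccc
Anxa5, chr3:36475838-36476137, minus strand: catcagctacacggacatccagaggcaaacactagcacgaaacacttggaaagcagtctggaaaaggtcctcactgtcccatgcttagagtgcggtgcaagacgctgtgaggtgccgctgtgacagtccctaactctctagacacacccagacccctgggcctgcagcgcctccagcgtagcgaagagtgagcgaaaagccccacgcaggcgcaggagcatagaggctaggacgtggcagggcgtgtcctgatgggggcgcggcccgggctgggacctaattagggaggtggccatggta

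Of the 31 members 25 had a promoter in the RefSeq table. S100a11 held 2 matches to TGANTCA, at -136 and -38 relative to the start, and Anxa2 held 1 at -95. This motif was found in 5 of the 25 members and in 7.81% of all 32851 promoters. Here and below a member counted if any of its promoters held a match, and S100a3 had more than 1. The shares are per promoter, so the units differ. TATAAA stood at -30 in S100a8, at -32 in Anxa1, at -17 in Anxa2 and at 1 in S100a9, that is at the annotated start itself. It was found in 9 members and in 13.6% of all promoters. TTGCNNAA was present in S100a9 and Anxa1 (5 members, 10.8% of promoters), GGAATG in Anxa1 (4 members, 14.7%) and AGGAAG at 2 places in S100a8 (10 members, 35.4%). Anxa5 held no match to any of these letters in this window. A match here describes the letters of the sequence and is not a measured binding site.

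Markers of hepatocytes and of other cells differed between groups. The 10 hepatocyte markers summed to 14841 to 15884 TPM in DDC fed, 4094 to 6458 TPM in E18 and 21009 to 28307 TPM in normal fed samples, and 10, 10 and 9 of them reached 1 TPM in both samples (Serpina1c was listed at 0 in normal fed samples). Ttr made up much of the E18 sum, at 3941 and 2487 TPM, whereas Tdo2 was at 1.52 and 1.44 TPM and Tat at 10.86 and 7.82 TPM at E18, against 1495 and 1171 TPM and 1533 and 1100.4 TPM in normal fed samples. Between the adult groups the markers did not move together. Cyp2e1 was at 727 and 903 TPM in DDC fed and 8193 and 4389 TPM in normal fed samples. Ttr, Tat, Tdo2 and Hpd were lower in DDC fed samples too. Apob, Cps1, Hnf4a and Pck1 overlapped between the adult groups, and Serpina1c was at 627 and 543 TPM in DDC fed samples. Neutrophil markers summed to 1.66 to 1.69 TPM in DDC fed samples, where none of 10 reached 1 TPM in both samples, to 11113 to 13866 TPM at E18, where all 10 did, and to 0.234 to 0.324 TPM in normal fed samples, where Mpo, Ngp, Camp, Ltf, Retnlg, Cxcr2 and Mmp8 were listed at 0. In a bulk sample fewer cells of a type and less RNA per cell cannot be told apart. Genes were tested where at least 2 of the 6 samples had 1 TPM or more, 14307 in all, with limma on log2(TPM + 1), and a call is an adjusted p under 0.05 over these genes. Fold changes are given on that log2 scale ± SE, which understates the change of low genes.

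The normal fed samples differed from each other more than those of the other groups, and the difference followed gene length. Within a group the samples lay apart by a median of 0.125 in DDC fed, 0.168 in E18 and 0.372 in normal fed samples, as absolute log2 differences. The fit uses 1 variance per gene for all 6 samples. Its SEs therefore tend to be too small against normal fed, and too large for DDC fed against E18. In normal fed samples, sample 1 minus sample 0 was 0.29 as a median over the class of genes with the shortest exons and -0.69 over the class with the longest, of 10 classes (Spearman rho = -0.425 across 10618 genes, which are not independent replicates). Annexins and most S100 genes lay on opposite sides of 0. All 6 annexins with a normal fed mean of at least 1 TPM were lower in sample 1 than in sample 0, by 0.39 (Anxa7) to 1.09 (Anxa11), and their median total exon length was 3933 bases. Of 5 such S100 genes 4 were higher in sample 1, by 0.80 (S100a16) to 1.16 (S100a10), and the longest, S100pbp with 9448 bases of exon, was lower. Most of these members differed by more than the medians of genes of similar length. S100a10 (1212 bases) differed by 1.16, beside 0.29 in the class with a median length of 991.5 bases. Anxa2 (3731 bases) differed by -1.02, beside -0.37 in the class with a median length of 3824 bases. Anxa5 (1777 bases) differed by -0.73 and S100a16 (1617 bases) by 0.80. The class with a median length of 1856.5 bases had a median of -0.05. Anxa7 (5991 bases) and S100pbp (-0.36) differed by less than the classes nearest in length. These had medians of -0.48 (median length 5497 bases) and -0.61 (8331.5 bases). Fold changes are given below without a normal fed sample, or with a correction for the length trend, where that changed a call. This correction also recentres each sample. It shifted the median of all genes by -0.52 for DDC fed and by -1.09 for E18, each against normal fed. Whether length or this shift changed a call was not tested.

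**Figure D1:**
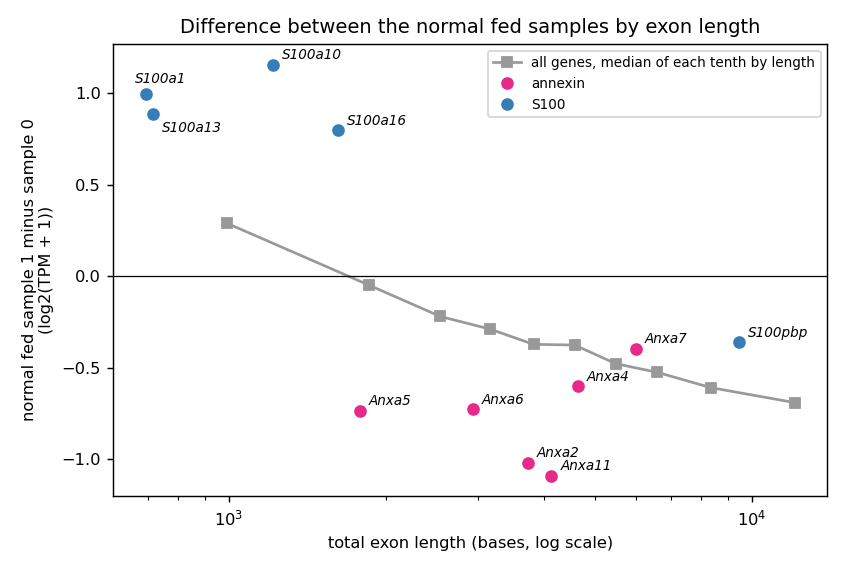
Difference between the 2 normal fed samples, sample 1 minus sample 0 in log2(TPM + 1) (y axis), against total exon length in bases (x axis, log scale). Circles are members with a normal fed mean of at least 1 TPM, squares the medians of all genes in 10 classes of length; the 6 annexins lie below 0 and 4 of the 5 S100 genes above 0.

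Of the 31 members 21 passed the filter, 10 annexins and 11 S100 genes. S100a2, S100a7l2 and S100z were listed at 0 in every sample. The other 7 stayed low: Anxa10 reached 1.31 TPM in E18 sample 0, and Anxa8, S100a3, S100a5, S100a7a, S100a14 and S100b stayed below 1 TPM throughout. Of the 21, 7 were below 1 TPM in both normal fed samples (Anxa9, Anxa13, S100a4, S100a6, S100a8, S100a9 and S100g). They passed only through another group. For Anxa1, Anxa2, Anxa3 and S100a11 only sample 0 of the normal fed samples reached 1 TPM (1.03, 2.62, 1.23 and 1.01 TPM). These genes too passed only with samples of another group. Counts and medians over the tested members therefore favour rises.

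As a family, the annexins summed to 1157 and 1174 TPM in DDC fed, 1683 and 1712 TPM in E18, and 169.8 and 104.8 TPM in normal fed samples. The leading annexin differed between the groups. In DDC fed samples Anxa5 made up 36.8% and 37.9% of the sum and Anxa2 24.4% and 25.3%. At E18 Anxa1 made up 59.6% and 63.4% and Anxa2 15.7% and 14.5%. In normal fed samples Anxa6 made up 38.4% and 37.3%, followed by Anxa4 and Anxa7.

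The S100 genes summed to 1274 and 1479.9 TPM in DDC fed samples, to 46184 and 54407 TPM at E18, where they were 4.62% and 5.44% of all TPM, and to 451 and 909.7 TPM in normal fed samples. S100a9 and S100a8 carried 62.9% and 35.5% of the E18 sum in sample 0 and 61.8% and 36.7% in sample 1. Without these 2 genes the E18 sums were 723 and 821 TPM, below the 1272 and 1478 TPM of DDC fed samples. The leading S100 gene was S100a10 in DDC fed samples (45.8% and 47.7%), S100a9 at E18 and S100a1 in normal fed samples (53.9% and 53.4%).

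**Figure D2:**
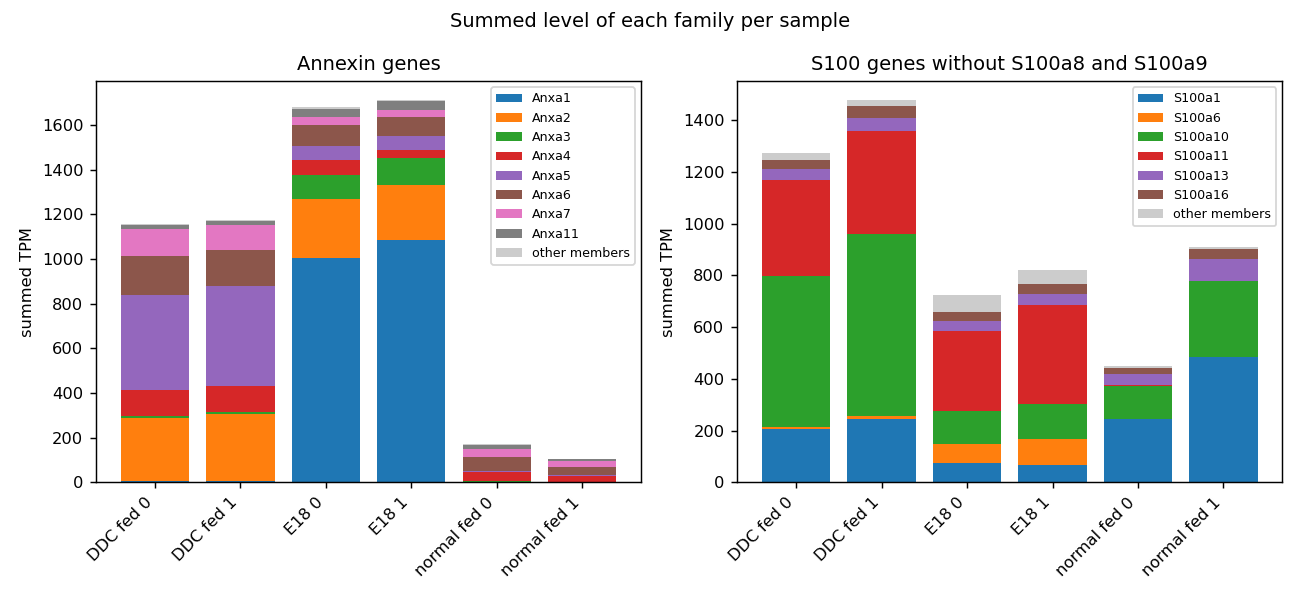
Summed TPM (y axis) of the annexins and of the S100 genes without S100a8 and S100a9, in each of the 6 samples (x axis), split by member; members whose mean stayed below 30 TPM in every group are pooled in grey. Anxa1 fills most of the E18 annexin bars (59.6% and 63.4%), Anxa5 and Anxa2 lead in the DDC fed bars, and the normal fed bars reach 169.8 and 104.8 TPM.

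The first question is which members differ after 4 weeks of the injuring diet, in DDC fed against normal fed samples. Of the 10 annexins tested 8 rose and none fell, and of the 11 S100 genes 6 were higher and none lower, where 37.3% of all genes tested were called, 34.2% as higher and 3.07% as lower. The median log2 fold change was 1.86 over the tested annexins, against 0.45 over all genes. Anxa2, Anxa5 and S100a11 averaged 289, 435 and 385 TPM in DDC fed samples and 1.71, 3.22 and 0.898 TPM in normal fed samples. Median-ratio scaling shifted the median of all genes in this comparison by -0.45 and left 8 annexins and 5 S100 genes higher. Without normal fed sample 0, 9 annexins and 8 S100 genes were higher and 2 S100 genes lower, and without DDC fed sample 0 or 1 the S100 genes called higher were 4.

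Among the partners of S100 dimers, Anxa2, which also binds plasminogen and its activator at the cell surface, was at 282 and 297 TPM in DDC fed and 2.62 and 0.789 TPM in normal fed samples. It rose by 6.83 ± 0.33 (limma adjusted p = 4e-05). Its ligand S100a10, which is locked in the active shape and does not bind calcium, was at 583 and 706 TPM in DDC fed and 131 and 293 TPM in normal fed samples. S100a10 rose by 1.71 ± 0.38 (adjusted p = 0.0135). It did not pass with median-ratio scaling (1.04, adjusted p = 0.161), with no filter or the compared groups alone (0.0581 and 0.0633), nor without DDC fed sample 0 or 1 (0.0584 and 0.0935) or E18 sample 0 or 1 (0.0722 and 0.072). The ratio of S100a10 to Anxa2 RNA was 2.07 and 2.38 in DDC fed, and 49.96 and 371 in normal fed samples, where Anxa2 was near its lowest level.

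S100a11, which binds annexins at sites of membrane damage, was at 372 and 398 TPM in DDC fed and 1.01 and 0.784 TPM in normal fed samples. Its fold change of 7.67 ± 0.20 (adjusted p = 3.88e-06) lay between 6.05 and 8.60 in all 20 alternatives. Anxa1, a glucocorticoid-induced ligand of formyl peptide receptors, stayed far lower, at 6.13 and 7.48 TPM in DDC fed and 1.03 and 0.461 TPM in normal fed samples (2.174 ± 0.23, adjusted p = 0.000656). In DDC fed samples the RNA of S100a11 thus exceeded that of Anxa1 by ratios of 60.6 and 53.2, while its ratio to Anxa2 was 1.32 and 1.34.

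The annexins without a well-known S100 partner rose to different degrees. Anxa5, which binds the phosphatidylserine exposed by dying cells, was at 425 and 446 TPM in DDC fed and 4.27 and 2.16 TPM in normal fed samples (6.74 ± 0.27, adjusted p = 1.97e-05). The groups did not overlap. Anxa4, an annexin of epithelial membranes, was at 117 and 118 TPM in DDC fed and 41.1 and 26.8 TPM in normal fed samples (1.79 ± 0.35, adjusted p = 0.00763, and 0.0509 without DDC fed sample 1). Anxa6, the largest annexin, with a duplicated core, was at 173 and 162 TPM in DDC fed and 65.3 and 39.1 TPM in normal fed samples (1.71 ± 0.27, adjusted p = 0.00338). Anxa7, first described as a membrane fusion protein, was at 122 and 110.2 TPM in DDC fed and 34.2 and 25.8 TPM in normal fed samples (1.93 ± 0.21, adjusted p = 0.000704). For each of these the DDC fed samples lay above both normal fed samples.

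Anxa3, an annexin abundant in neutrophils, was at 8.82 and 10.6 TPM in DDC fed and 1.23 and 0.712 TPM in normal fed samples (2.45 ± 0.22, adjusted p = 0.000384). Anxa9, whose calcium sites are degenerate, averaged 2.71 ± 0.188 TPM in DDC fed and 0.514 ± 0.147 TPM in normal fed samples (SD, 2 samples each; 1.30 ± 0.14, adjusted p = 0.000728, and 0.0588 with quantile normalization). Anxa11, which binds the EF-hand protein Pdcd6, was at 19.9 and 20.7 TPM in DDC fed and 19.4 and 8.58 TPM in normal fed samples. Its fold change of 0.61 ± 0.35 did not pass (adjusted p = 0.213). It was 1.15 (adjusted p = 0.0015) without normal fed sample 0 and 0.06 without sample 1, so 1 library decides this value. Anxa13, an intestinal annexin, stayed below 1 TPM in both adult groups (0.18 ± 0.50, adjusted p = 0.812).

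S100a6, S100a4 and S100g, below 1 TPM in both normal fed samples, rose. S100a6, or calcyclin, which binds Cacybp, was at 9.01 and 9.74 TPM in DDC fed samples and at 0.0677 TPM and 0 in normal fed samples (3.33 ± 0.22, adjusted p = 0.000135). S100a4, a binding protein of non-muscle myosin, was at 2.75 and 3.23 TPM in DDC fed samples and at 0.532 TPM and 0 in normal fed samples (1.69 ± 0.28, adjusted p = 0.00435, and 0.0697 with quantile normalization). S100g, the vitamin D-dependent calbindin of the intestine, was at 11.4 and 11.1 TPM in DDC fed samples and at 0 and 0.110 TPM in normal fed samples (3.54 ± 0.33, adjusted p = 0.000429). All 3 genes lay higher in both DDC fed samples than in either normal fed sample.

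S100a1, S100a13, S100a16 and S100pbp did not pass. S100a1, known from heart muscle, was at 205 and 246 TPM in DDC fed and 243 and 486 TPM in normal fed samples (-0.61 ± 0.34, adjusted p = 0.198). S100a13, which takes part in the export of FGF1, was at 41.6 and 48.6 TPM in DDC fed and 44.7 and 83.4 TPM in normal fed samples (-0.44 ± 0.31, adjusted p = 0.315). S100a16 was at 37.6 and 45.2 TPM in DDC fed and 22.3 and 39.5 TPM in normal fed samples (0.46 ± 0.29, adjusted p = 0.252). In all 3 the groups overlapped. Without normal fed sample 0, S100a1 and S100a13 were lower (-1.11 and -0.88, adjusted p = 0.00386 and 0.0104), and without sample 1 S100a16 was higher (0.86, adjusted p = 0.0122). S100pbp, at 10.1 and 9.40 TPM in DDC fed and 8.34 and 6.28 TPM in normal fed samples, missed the threshold (0.38 ± 0.21, adjusted p = 0.2). It was higher when normal fed sample 0 was left out (0.56, adjusted p = 0.0206).

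The calprotectin genes were near the floor in both adult groups. S100a8 was at 0.554 and 1.02 TPM in DDC fed and 0.140 and 0.108 TPM in normal fed samples (0.66 ± 0.22, adjusted p = 0.0534), and passed with only the compared groups (adjusted p = 0.038), without normal fed sample 0 (0.0403) and with a pseudocount of 0.1 (1.94, 0.00323). S100a9 was at 1.20 and 1.01 TPM in DDC fed samples and listed at 0 in both normal fed samples. It is among the 6 S100 genes counted as higher, and no fold change is given for it.

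Markers of other liver cells moved with these rises. Macrophage markers summed to 1111 to 1386 TPM in DDC fed and 115 to 135 TPM in normal fed samples, and 10 and 9 of 10 reached 1 TPM in both samples. Stellate and fibroblast markers summed to 321 to 363 TPM in DDC fed and 11.6 to 25.2 TPM in normal fed samples (8 and 1 of 10). Dcn made up much of the DDC fed sum, at 228 and 210 TPM. Acta2, listed at 0 in normal fed samples, stayed at 0.160 and 0.121 TPM in DDC fed samples. Endothelial markers summed to 188 to 198 TPM in DDC fed and 18.8 to 49.2 TPM in normal fed samples (10 and 4 of 10). Cholangiocyte and ductular markers summed to 89.1 to 111 TPM in DDC fed and 12.2 to 14.2 TPM in normal fed samples (5 and 3 of 10). Spp1 made up much of this DDC fed sum, at 56.5 and 67.6 TPM. Of the markers listed at 0 in normal fed samples, Cldn7 was at 3.71 and 4.19 TPM in DDC fed samples. Cftr stayed at 0.027 and 0.026 TPM there. The part of these cells in the rises of Anxa2, Anxa5, S100a11 and the others was not tested. Mesothelial markers summed to at most 0.963 TPM and lymphocyte markers to at most 0.814 TPM in either adult group, platelet markers to at most 6.52 TPM, and erythroid markers to 37.6 to 37.8 TPM in DDC fed and 28.1 to 39.9 TPM in normal fed samples.

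**Figure D3:**
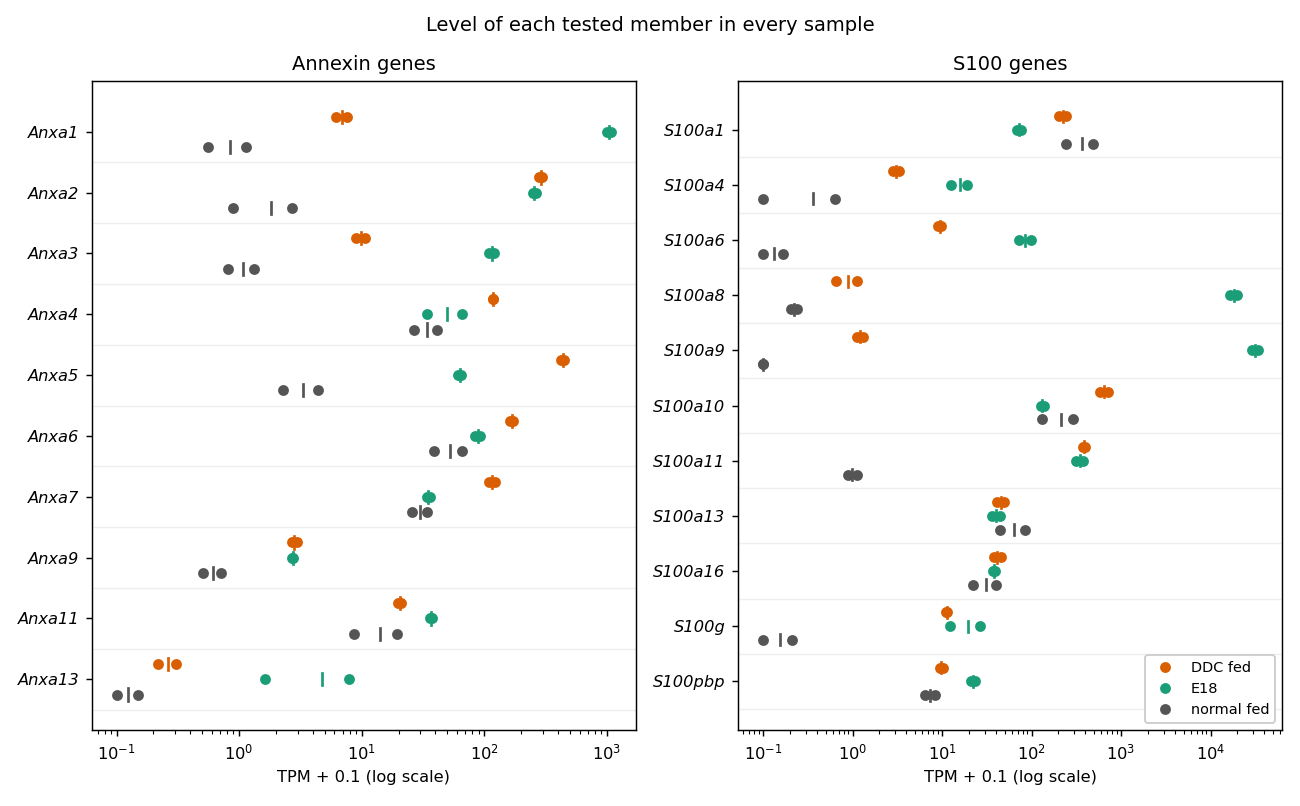
TPM of the 21 tested members in every sample, plotted as TPM + 0.1 on a log axis, with 1 row per gene; circles are samples, vertical ticks the mean of the 2 samples, and colours the group. Anxa2, Anxa5 and S100a11 are far higher in DDC fed than in normal fed samples, Anxa1, S100a8 and S100a9 reach their top level at E18, and S100a1, S100a13 and S100a16 overlap between DDC fed and normal fed samples.

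E18 against normal fed adults compares late fetal with adult preparations, and shares its normal fed samples with the comparison above. Of the 10 annexins tested 8 were higher and none lower, and of the 11 S100 genes 7 were higher and 1 was lower, where 75.7% of all genes tested were called, 63% as higher and 12.7% as lower. The median log2 fold change was 1.82 over the tested annexins, against 1.06 over all genes. Median-ratio scaling shifted the median of all genes by -0.94, after which 6 annexins were higher and 1 lower, and 7 S100 genes were higher and 3 lower. The exon-length correction shifted that median by -1.09 and gave 6 and 1, and 6 and 3.

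S100a8 was at 16404 and 19942 TPM in E18 and 0.140 and 0.108 TPM in normal fed samples (13.97 ± 0.22, adjusted p = 3.52e-07). S100a9 was at 29057 and 33644 TPM at E18 and listed at 0 in normal fed samples. The ratio of S100a8 to S100a9 was close in the E18 samples, 0.565 and 0.593. The listed receptors of these proteins, named after their values were seen, differed in level. Bsg was at 903 and 907 TPM at E18 and 536 and 454 TPM in normal fed samples, Tlr4 was at 11.2 and 10.7 TPM at E18 and 0.478 and 0.110 TPM in normal fed samples, and Ager at 6.37 and 5.89 TPM at E18 and 0.0529 and 0.297 TPM in normal fed samples. Neutrophil markers moved with S100a8 and S100a9: all 10 reached 1 TPM in both samples at E18 and none did in either adult group. Their part in the values was not tested.

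Anxa1 and Anxa3 were also far above the adults. Anxa1 was at 1004 and 1086 TPM in E18 and 1.03 and 0.461 TPM in normal fed samples (9.24 ± 0.23, adjusted p = 1.16e-06), and Anxa3 at 109 and 121 TPM in E18 and 1.23 and 0.712 TPM in normal fed samples (5.89 ± 0.22, adjusted p = 1.89e-06). The receptors of Anxa1 were higher too, Fpr2 at 65.4 and 76.6 TPM in E18 and 0.218 and 0.415 TPM in normal fed samples (5.77 ± 0.26, adjusted p = 3.16e-06) and Fpr1 with a fold change of 4.61 ± 0.22 (adjusted p = 3.63e-06). Macrophage markers summed to 3918 to 5017 TPM, erythroid markers to 11906 to 22344 TPM and platelet markers to 2037 to 2295 TPM at E18, against 115 to 135, 28.1 to 39.9 and 1.49 to 1.83 TPM in normal fed samples. Markers of endothelial cells (495 to 496 TPM), stellate cells (288 to 313 TPM), cholangiocytes (103 to 166 TPM), lymphocytes (69.3 to 87.7 TPM) and mesothelium (21.6 to 26.1 TPM) were also above the normal fed sums at E18. The part of these cells in the member values was not tested.

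Anxa2, S100a11, Anxa5, S100a6 and S100g were higher as well. Anxa2 was at 264 and 248 TPM in E18 and 2.62 and 0.789 TPM in normal fed samples (6.66 ± 0.33, adjusted p = 4.34e-06). S100a11 was at 312 and 380.3 TPM in E18 and 1.01 and 0.784 TPM in normal fed samples (7.51 ± 0.20, adjusted p = 1.34e-06). Both genes lay above both normal fed samples. S100a10, the Anxa2 ligand, was at 128 and 136 TPM in E18 and 131 and 293 TPM in normal fed samples and did not pass (-0.57 ± 0.38, adjusted p = 0.211). It was lower without normal fed sample 0 (-1.15, adjusted p = 0.00214), with median-ratio scaling (-1.72, 0.0221) and with the exon-length correction (-1.08, 0.0227), and its fold change was 0.01 without normal fed sample 1. The ratio of S100a10 to Anxa2 RNA was 0.483 and 0.550 at E18.

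Anxa5 was at 64.9 and 61.2 TPM in E18 and 4.27 and 2.16 TPM in normal fed samples (3.97 ± 0.27, adjusted p = 1.63e-05). S100a6 was at 71.6 and 98.5 TPM in E18 samples and at 0.0677 TPM and 0 in normal fed samples (6.36 ± 0.22, adjusted p = 1.72e-06). S100a4 was at 12.48 and 19.2 TPM in E18 samples and at 0.532 TPM and 0 in normal fed samples (3.74 ± 0.28, adjusted p = 2.93e-05). S100g was at 26.2 and 12.3 TPM in E18 samples and at 0 and 0.110 TPM in normal fed samples (4.17 ± 0.33, adjusted p = 3.73e-05). For each of these genes both E18 samples lay above both normal fed samples. The E18 samples themselves differed for S100g, and for Anxa13 (7.81 and 1.54 TPM at E18, 2.21 ± 0.50, adjusted p = 0.0061, and 0.0735 with quantile normalization), and in both it was sample 0 that was higher.

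The remaining annexins had fold changes of 0.22 to 1.43, beside the median of 1.06 over all genes. Anxa4 was at 65.4 and 34.2 TPM in E18 and 41.1 and 26.8 TPM in normal fed samples and did not pass (0.50 ± 0.35, adjusted p = 0.226). Anxa7 was at 35.7 and 34.1 TPM in E18 and 34.2 and 25.8 TPM in normal fed samples (0.22 ± 0.21, adjusted p = 0.358), and was lower with median-ratio scaling (-0.90, adjusted p = 0.00235), with quantile normalization (-0.67, 0.00713) and with the exon-length correction (-1.04, 0.000846), but higher without normal fed sample 0 (0.42, 0.0294). Anxa6 was at 91.8 and 84.7 TPM in E18 and 65.3 and 39.1 TPM in normal fed samples (0.79 ± 0.27, adjusted p = 0.0319), a call that reversed its sign with median-ratio scaling (-0.35, 0.130) and the exon-length correction (-0.09, 0.736). Anxa6 also did not pass with quantile normalization (0.32, adjusted p = 0.199) or without the 50 highest genes (0.55, 0.0835). With no filter and with the compared groups alone its adjusted p was 0.0617 and 0.0676. It did not pass without E18 sample 0 or 1 (fold changes of 0.73 and 0.85) or without either DDC fed sample (0.79). Of the 20 alternatives 8 kept this call. Anxa11 was at 35.8 and 37.6 TPM in E18 and 19.4 and 8.58 TPM in normal fed samples (1.43 ± 0.35, adjusted p = 0.00803), and did not pass with median-ratio scaling (0.33, 0.264), with quantile normalization (0.40, 0.143), with the exon-length correction (0.35, 0.256) or without E18 sample 0 or 1 (0.0802 and 0.0915). Anxa9 was at 2.62 and 2.66 TPM at E18 (1.27 ± 0.14, adjusted p = 0.000195), with a fold change of -0.41 (adjusted p = 0.0285) under quantile normalization.

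S100a1 was the only member called lower at E18 with TPM as deposited. It was at 75.3 and 68.7 TPM in E18 and 243 and 486 TPM in normal fed samples (-2.24 ± 0.34, adjusted p = 0.000891), and its fold change lay between -3.39 and -1.74 in all 20 alternatives. Its neighbour S100a13, at 35.9 and 44.3 TPM in E18 and 44.7 and 83.4 TPM in normal fed samples, did not pass (-0.60 ± 0.31, adjusted p = 0.121), but was lower with median-ratio scaling (-1.74, 0.0106), quantile normalization (-1.29, 0.00944), the exon-length correction (-1.12, 0.00593) and without normal fed sample 0 (-1.05, 0.00327). S100a16 was at 36.6 and 38.9 TPM in E18 and 22.3 and 39.5 TPM in normal fed samples and did not pass (0.33 ± 0.29, adjusted p = 0.324). It was -0.79 with median-ratio scaling and, without normal fed sample 1, higher (0.73, 0.00788). S100pbp was at 23.2 and 21.1 TPM in E18 and 8.34 and 6.28 TPM in normal fed samples (1.49 ± 0.21, adjusted p = 0.000649), and did not pass with quantile normalization (0.21, 0.267) or the exon-length correction (0.09, 0.610).

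**Figure D4:**
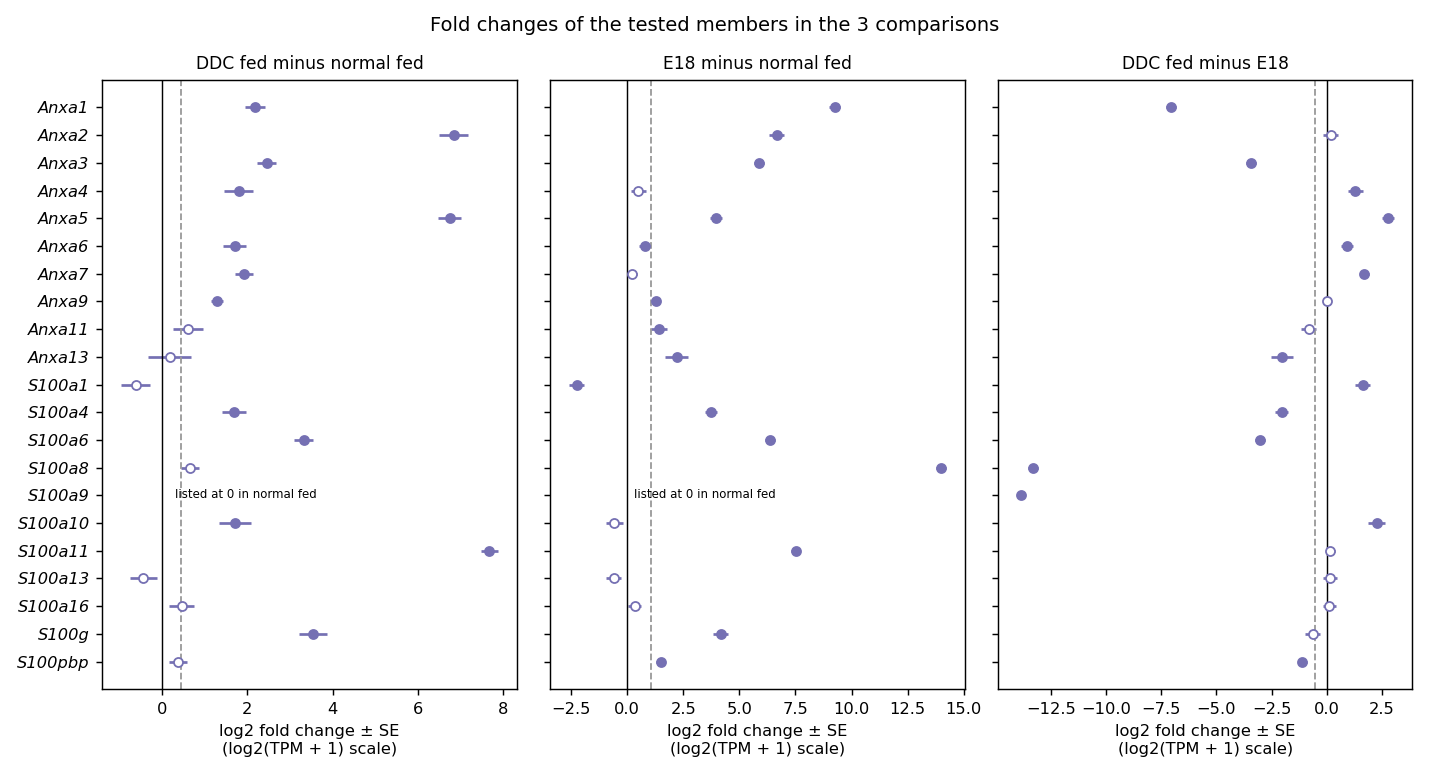
Log2 fold change ± SE of each tested member (rows) in the 3 comparisons, each panel with its own x axis; filled circles passed an adjusted p of 0.05, open circles did not, and the dashed line is the median of all genes tested. Anxa2 and S100a11 lie far to the right in both comparisons with normal fed samples (6.83 and 7.67 for DDC fed, 6.66 and 7.51 for E18) and near 0 between DDC fed and E18 samples, and S100a9 has no value where normal fed samples were listed at 0.

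DDC fed adults against E18 asks where the injured adult and the fetal preparations differ. Of the 10 annexins tested 4 were higher in DDC fed samples and 3 lower, and of the 11 S100 genes 2 were higher and 5 lower, where 64.7% of all genes tested were called, 17.7% as higher and 47% as lower. The median fold change was 0.10 over the tested annexins, against -0.55 over all genes, a median that median-ratio scaling shifted by 0.43. Anxa2 and S100a11 did not pass: Anxa2 differed by 0.18 ± 0.33 (adjusted p = 0.66) and S100a11 by 0.16 ± 0.20 (adjusted p = 0.509), though S100a11 was higher with median-ratio scaling (0.64, 0.0157) and the exon-length correction (0.67, 0.0247). A p that misses the threshold does not show that their levels were equal.

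Anxa5, S100a10 and Anxa7 were higher in DDC fed than in E18 samples, by 2.77 ± 0.27, 2.27 ± 0.38 and 1.70 ± 0.21 (adjusted p = 0.000146, 0.00195 and 0.000457). S100a1 was higher by 1.63 ± 0.34 (adjusted p = 0.00529), though not without E18 sample 0 or 1 (0.0604 and 0.0773). Anxa4 (1.30 ± 0.35, adjusted p = 0.0149) and Anxa6 (0.91 ± 0.27, adjusted p = 0.022) were higher as well, but Anxa4 did not pass without DDC fed sample 0 or 1 or E18 sample 1 (0.0698, 0.0694 and 0.112), and Anxa6 did not pass when any 1 of the 4 DDC fed and E18 samples was left out (0.0909 to 0.144). In each of these 6 genes both DDC fed samples lay above both E18 samples.

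Anxa1 and Anxa3 were lower in DDC fed than in E18 samples, by -7.07 ± 0.23 and -3.44 ± 0.22 (adjusted p = 2.13e-06 and 2.37e-05), and Anxa13 by -2.03 ± 0.50 (adjusted p = 0.011, and 0.0858 with quantile normalization). S100a9 and S100a8 had the largest differences of all members, -13.86 ± 0.19 and -13.32 ± 0.22 (adjusted p = 3.91e-07 for both). S100a6 (-3.03 ± 0.22, adjusted p = 4.23e-05), S100a4 (-2.05 ± 0.28, adjusted p = 0.000811) and S100pbp (-1.11 ± 0.21, adjusted p = 0.00358) were lower too, and S100pbp did not pass with the exon-length correction (-0.35, 0.081). Anxa9, Anxa11, S100a13, S100a16 and S100g did not pass, though Anxa9 was higher with quantile normalization (0.82, 0.00162) and median-ratio scaling (0.36, 0.0374). Of these Anxa11, at 19.9 and 20.7 TPM in DDC fed and 35.8 and 37.6 TPM in E18 samples (-0.83 ± 0.35, adjusted p = 0.074), passed without either normal fed sample (0.00104 and 0.000979). S100g passed without E18 sample 1 (-1.15, 0.0191).

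In position, the S100 genes are mostly neighbours. On GRCm38, 15 of the 19 lie on chromosome 3, and 12 of them, from S100a1 to S100a9, stand within 185 kb (chr3:90511034-90695721), where the other protein-coding gene, Gm42674, was listed at 0. S100a11 and S100a10 lie further along and 28.8 kb apart. Neighbours differed widely in level. At the start of the cluster S100a1, S100a13 and S100a16 had group means of 30.9 to 365 TPM in every group, with S100a14, below 1 TPM, among them. In the middle S100a2, S100a3 and S100a5 stayed below 1 TPM, beside S100a4 and S100a6 at 15.8 ± 4.72 and 85.0 ± 19.0 TPM at E18 (SD, 2 samples). At the end S100a8 and S100a9 had means of 18173 and 31350.4 TPM at E18, next to S100a7a at 0.565 TPM. S100a1 and S100a13 start 0.043 kb apart on opposite strands, and the labels name a stranded kit without saying how strand was used. S100a11 and S100a10, which are neighbours, differed in pattern: the ratio of S100a10 to S100a11 was 1.57 and 1.77 in DDC fed, 0.408 and 0.359 in E18, and 129 and 374 in normal fed samples.

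**Figure D5:**
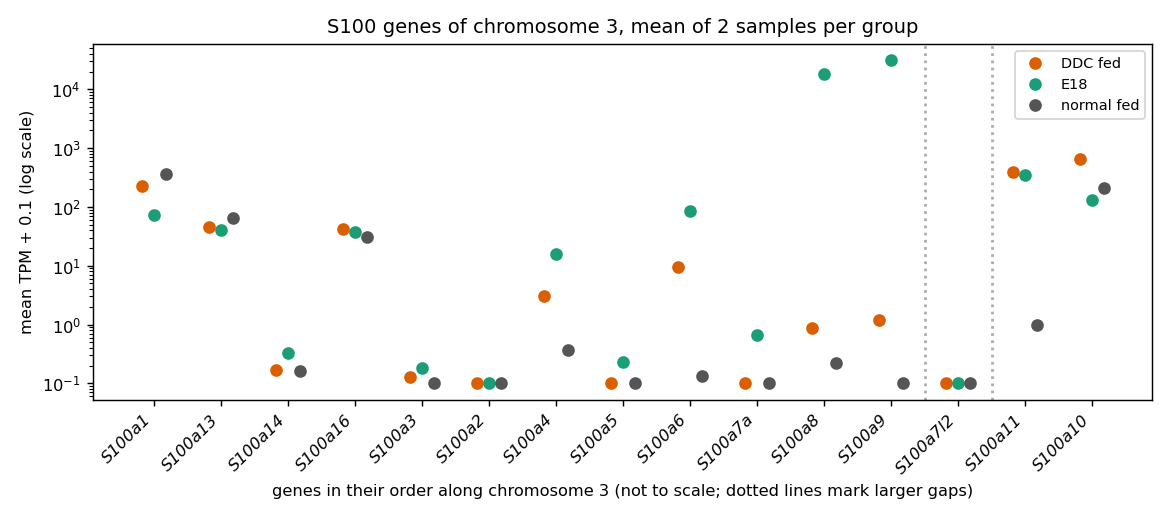
Mean TPM + 0.1 of 2 samples per group (y axis, log scale) for the 15 S100 genes of chromosome 3 in their order along it (x axis, not to scale). S100a8 and S100a9 stand out at E18 with 18173 and 31350.4 TPM, and genes listed at 0 such as S100a2 stand beside others such as S100a4, at 15.8 TPM at E18.

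Other genes of these pathways were taken from lists written from general knowledge. Of 15 receptors and binding partners of annexins and S100 proteins 12 were higher in DDC fed than in normal fed samples and none lower. Over all genes 34.2% were higher and 3.07% lower. Ager, among the 12, was below 1 TPM in both adult groups (0.648 and 0.644 TPM in DDC fed samples). It passed the filter only through E18. Plaur, the urokinase receptor, rose by 2.16 ± 0.24 (adjusted p = 0.000759), the giant S100a10 partner Ahnak by 2.05 ± 0.24 (adjusted p = 0.000906) and the protease Plau by 1.23 ± 0.17 (adjusted p = 0.0018). Plaur was at 3.47 and 5.54 TPM and Plau at 1.35 and 1.91 TPM in DDC fed samples. Both were below 1 TPM in normal fed samples. Plat, the tissue plasminogen activator, was at 3.12 and 4.14 TPM in DDC fed samples and listed at 0 in normal fed samples. The 3 that did not pass were Pdcd6, Cacybp and Plg (adjusted p = 0.436, 0.626 and 0.696). At E18 13 of the 15 were higher than in normal fed samples, where 63% of all genes were, led by Plaur (6.27 ± 0.24, adjusted p = 1.91e-06), and Pdcd6 and Plg did not pass. Between DDC fed and E18 samples 2 were higher, Plat (0.76 ± 0.16, adjusted p = 0.00577) and Ahnak (0.80 ± 0.24, adjusted p = 0.022), and 9 were lower, led by Fpr2 (-4.88 ± 0.26, adjusted p = 1.06e-05), where 17.7% of all genes were higher and 47% lower.

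Of 25 other EF-hand genes tested (29 listed) 16 were higher in DDC fed than in normal fed samples and none lower, beside 34.2% and 3.07% of all genes, with the smallest adjusted p for Micu2, a regulator of mitochondrial calcium uptake (2.90 ± 0.27, 0.000409), and Nucb2 (2.167 ± 0.20, 0.000423). At E18 18 were higher than in normal fed samples (63% of all genes), among them Rcn3 of the secretory pathway (3.42 ± 0.19, adjusted p = 6.93e-06), and 1 was lower, Cib1 (-0.80 ± 0.27, adjusted p = 0.0309). With median-ratio scaling 11 were higher and 6 lower at E18. Between DDC fed and E18 samples 4 were higher, Cib1, Capns1, Micu2 and Sdf4, and 9 lower, beside 17.7% and 47% of all genes. Of 21 tested genes with C2 domains (31 listed), the other large class of calcium-dependent membrane binders, 11 were higher in DDC fed than in normal fed samples (34.2% of all genes), such as the kinase Prkca (2.28 ± 0.21, adjusted p = 0.000422). At E18 18 were higher than in normal fed samples and Syt1 was lower (-1.84 ± 0.47, adjusted p = 0.0104), beside 63% and 12.7% of all genes, and between DDC fed and E18 samples 3 were higher, Rasal1, Syt1 and Cpne8, and 15 lower, beside 17.7% and 47% of all genes. At E18, and against E18, several of these shares lie near those over all genes, and nothing particular to either list is read from them.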

How the data were processed

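The deposited table holds TPM values, with every column totalling 1000000. Tools listed in the submitters' processing notes, without their role, are STAR 2.4.2a, bcl2fastq 2.17.1.14, Cuffdiff 2.2.1, Picard 1.119, DESeq2, HTSeq and Trimmomatic, and the builds GRCm38 and mm10. The tool that made the TPM is not given in the sources used here. Columns carry the numbers 0 and 1 whereas titles carry 1 and 2, so a column was tied to its group alone.

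Identifiers were matched to GENCODE M21, which held 48053 of 48432. A gene entered the fit where 2 or more samples reached 1 TPM. The model was limma 3.58.1 (R 4.3.3; files read with the R package data.table, version 1.17.8) on log2(TPM + 1), fitting a mean per group to all 6 samples, with 3 residual degrees of freedom and a trended variance prior. Two-sided p-values were adjusted over the 14307 genes by the Benjamini-Hochberg method. The fit was tested on simulated data that gave each gene the same spread in every group. The real groups differed in spread, so this test does not show how often calls here are wrong. Values were given for members with a mean of at least 10 TPM in some group, and others where singled out; from each other list at most 4 genes with the smallest adjusted p were named, all where a count was 5 or fewer, and the defining cell markers. Members, lists and alternatives were chosen with earlier results of these data known. The 20 alternatives were another pseudocount, filter, scaling, gene set, length correction, variance prior, call rule, replicate block or sample set.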

Additional observations from a re-analysis of the deposited data

How the results depend on the processing

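With 2 samples a group and no read counts, the depth is unknown and small changes of low genes could not be shown. Over all 20 alternatives the following calls against normal fed kept their side of the threshold wherever they were tested. For DDC fed they were Anxa1, Anxa2, Anxa3, Anxa5, Anxa6, Anxa7, S100a6, S100a11 and S100g as higher. For E18 they were Anxa1, Anxa2, Anxa3, Anxa5, S100a4, S100a6, S100a8, S100a11 and S100g as higher, and S100a1 as lower. The replicate number is only a number here: deviations of same-numbered samples correlated by 0.233, 0.139 and 0.061 between the groups, and with the replicate block 8 annexins and 7 S100 genes were higher in DDC fed samples, against 8 and 6, and no count moved by over 1.5 times. S100a8 then passed (0.66, adjusted p = 0.0492). A lone sample was taken to be as variable as the rest. The cause of the changes below was not tested.

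Counts against normal fed moved as follows. For E18, quantile normalization gave 4 annexins higher and 2 lower and 2 S100 genes lower, and median-ratio scaling and the exon-length correction each gave 1 annexin and 3 S100 genes lower. With 1 sample left out, S100 genes lower ranged from 0 to 2 for DDC fed and from 1 to 3 for E18. For DDC fed against E18, annexins higher ranged from 2 to 4 and S100 genes higher from 1 to 2 with 1 sample left out; 2 annexins were higher at an adjusted p of 0.01, and 3 S100 genes were lower after removal of the 50 highest genes, which takes out S100a8 and S100a9. Among the lists, a mean of at least 5 TPM left fewer genes to test, with 5 C2-domain genes and 7 partners higher for DDC fed, 9 and 8 for E18 with 0 C2-domain genes lower, and for DDC fed against E18 0 and 1 higher and 8 and 5 lower. Quantile normalization gave 7 C2-domain genes higher and 1 lower for DDC fed, 11 and 3 for E18, and 5 and 9 for DDC fed against E18, with 4 EF-hand genes and 1 partner lower at E18. Median-ratio scaling gave 11 EF-hand genes higher and 6 lower, and 2 C2-domain genes and 2 partners lower, at E18, and 11 EF-hand genes higher for DDC fed against E18. The exon-length correction gave 1 C2-domain gene lower for DDC fed, 4 C2-domain genes, 7 EF-hand genes and 2 partners lower at E18, and 5 C2-domain and 10 EF-hand genes higher for DDC fed against E18. EF-hand genes lower at E18 were 2 after removal of the 50 highest genes and 0 with no filter, with the compared groups alone, at an adjusted p of 0.01 or with a fold change of at least 2, and 0 to 3 with 1 sample left out. EF-hand genes higher for DDC fed against E18 were 9 with the compared groups alone, 1 at an adjusted p of 0.01 and 1 with a fold change of at least 2, and 0 to 9 with 1 sample left out, where partners ranged from 1 to 3 and C2-domain genes from 1 to 3. Partners higher there were 1 at an adjusted p of 0.01 and 0 with a fold change of at least 2. At E18, C2-domain genes lower were 0 at an adjusted p of 0.01 and 0 to 1 with 1 sample left out, where partners lower ranged from 0 to 1, and for DDC fed EF-hand genes lower from 0 to 1.

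Fold changes that turned their sign were mostly of members that had not passed. For DDC fed against normal fed these were Anxa11 (-0.0216 with median-ratio scaling, -0.0009 with quantile normalization), S100a16 (-0.20 and -0.0083), S100pbp (-0.22 and -0.28, and -0.26 with the exon-length correction), S100a8 (-0.0087 with quantile normalization), Anxa13 (-0.10 with the exon-length correction) and S100a13 (-0.88 to 0.007 with 1 sample left out). For E18 against normal fed they were Anxa4 (-0.63, -0.28 and -0.64 in the same order of 3 settings), Anxa7 (-0.90, -0.67 and -1.04, and -0.0164 without the 50 highest genes), S100a16 (-0.79, -0.51 and -0.27, and -0.0649 to 0.73 with 1 sample left out), S100a10 (-1.15 to 0.0109 with 1 left out), Anxa6, which had passed (-0.35 with median-ratio scaling and -0.0903 with the exon-length correction), and Anxa9, which had passed (-0.41 with quantile normalization). For DDC fed against E18 they were Anxa2 (-0.15), S100a11 (-0.20) and S100g (0.0223) with quantile normalization, and Anxa9 (-0.0251 to 0.0779) and S100a16 (-0.0062 to 0.25) with 1 sample left out, both below 0 without DDC fed sample 1.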
